A study of Mus musculus with 2 samples.

Results

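The SR proteins are a family of splicing factors, and 10 of their genes (Srsf1, Srsf2, Srsf3, Srsf4, Srsf5, Srsf6, Srsf7, Srsf9, Srsf10 and Srsf11), out of 32285 genes in the count matrix, were followed here in single cells of mouse embryos in which Srsf2 was the targeted gene. The members were taken by their symbols and not by any measured value. The cells came from E14 embryos that had been decapitated and eviscerated, so that trunks and limbs remained, and were sorted on the fluorescent reporter tdT (tdTomato). One library was titled SRSF2f/f/Myf5-Cre/tdT, both Srsf2 alleles floxed, and the other SRSF2f/w/Myf5-Cre/tdT, a heterozygous control with 1 floxed allele, and both carried Myf5-Cre and the Rosa26-LSL-tdT reporter. Cre was driven by the Myf5 promoter, so tdT marks cells that expressed Cre or descend from such cells, whatever they have become. The sample titles and the study's methods do not give the number of embryos behind each library. There was 1 library per genotype, and no test between genotypes could be made.

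Which library is which is given differently by the sample titles and by the headings over the library summaries in the study's supplement. The library titled f/f has 15268 barcodes and its summary is headed Het/tdT in the supplement, while the library titled f/w has 12498 barcodes and is headed MKO/tdT, the study's name for the knockout. Srsf2 itself was lower in the library labelled f/w, which goes against the titles. SKM-like (skeletal muscle) cells also made up a smaller share of that library than of the other. The study reports a far smaller share of skeletal muscle cells in the knockout than in the control, so this goes against the titles as well. More cells were kept here in the library labelled f/f, and the study counts fewer control than knockout cells, which goes with the titles. The libraries are therefore called throughout by their labels, a ratio is always the log2 of the library labelled f/w over the library labelled f/f, and under the supplement's headings the same ratio reads MKO/tdT over Het/tdT. The sign of every difference between genotypes rests on this assignment.

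SR proteins carry RNA recognition motifs that bind exons and a domain rich in arginine and serine (RS domain) that recruits the spliceosome to splice sites. They also act in 3′ end formation, export and translation, and several of them limit their own level by splicing a poison exon into their message. Srsf2 and Srsf1 are the classical members that activate exons. Srsf3 and Srsf7 are the small shuttling members that link splicing to mRNA export, and Srsf3 also drives 3′ end choice. Srsf4, Srsf5 and Srsf6 are closely related members with a pair of RNA recognition motifs, Srsf9 is a short member close to Srsf1, Srsf10 represses splicing when dephosphorylated in heat shock and mitosis, and Srsf11 is a divergent member. The reads of these libraries come from 3′ ends, so they count messages per gene and do not tell spliced forms or poison exons apart. Whether an Srsf2 UMI came from an intact allele or from one recombined by Cre was not told apart.

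Srsf2 (ENSMUSG00000034120) lies on chromosome 11 at 116849901 to 116853094 of GRCm38, on the minus strand, in the GENCODE annotation. It shares 460 of its 2958 exon bases (15.6%) with Mettl23 and 288 (9.74%) with Mfsd11, both on the plus strand. Srsf1 lies on chromosome 11 at 88047373 to 88053755 (plus strand) and shares 98 exon bases with an antisense gene, Gm11508. Srsf4 lies on chromosome 4 at 131873617 to 131901706 (plus strand) and shares 1532 of its 3561 exon bases (43.0%) with Gm12992 on the opposite strand. Whether reads were counted by strand is not given in the sources used here, so the values of Srsf2, Srsf1 and Srsf4 are uncertain where such a pair could share reads. No annotated gene was found to share exon bases with the other 7 members. The 250 bases before the RefSeq start of Srsf2 are shown with those of Srsf1 and Srsf4, the other members that were at least 1.2-fold lower in the library labelled f/w over all cells, because the data ask which paralogs move with Srsf2. Each is written 5′ to 3′ on the gene's own strand from the RefSeq windows of GRCm38.p6, and capitals mark motifs found by their letters on either strand. The Srsf2 window is chr11:116853095-116853344, that of Srsf1 chr11:88047123-88047372 and that of Srsf4 chr4:131873387-131873636, whose last 20 bases lie inside the first exon as GENCODE draws it.

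Srsf2: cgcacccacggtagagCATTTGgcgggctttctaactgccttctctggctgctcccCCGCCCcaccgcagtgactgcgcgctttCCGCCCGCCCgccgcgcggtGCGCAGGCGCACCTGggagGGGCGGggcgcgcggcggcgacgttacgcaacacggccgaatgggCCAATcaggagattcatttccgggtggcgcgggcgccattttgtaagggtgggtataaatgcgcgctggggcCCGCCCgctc

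Srsf1: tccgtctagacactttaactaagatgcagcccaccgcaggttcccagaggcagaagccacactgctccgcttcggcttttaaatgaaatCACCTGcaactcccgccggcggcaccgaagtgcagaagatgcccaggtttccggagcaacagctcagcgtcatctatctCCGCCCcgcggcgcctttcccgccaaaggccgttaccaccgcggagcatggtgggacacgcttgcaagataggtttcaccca

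Srsf4: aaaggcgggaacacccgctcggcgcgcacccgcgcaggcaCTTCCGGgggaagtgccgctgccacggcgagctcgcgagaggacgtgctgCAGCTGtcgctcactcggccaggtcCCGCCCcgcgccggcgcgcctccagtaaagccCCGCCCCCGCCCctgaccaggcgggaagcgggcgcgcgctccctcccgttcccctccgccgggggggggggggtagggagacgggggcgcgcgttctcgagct

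The motifs searched were the CCAAT box (CCAAT), the GC box (GGGCGG), an ETS motif (CCGGAAG), the NRF1 motif, the CRE motif and the E-box (CANNTG), and motifs may overlap. The Srsf2 window held 1 CCAAT box, 5 GC boxes, of which a pair overlap, 1 NRF1 motif and 2 E-boxes, of which 1 shares a base with the NRF1 motif. The Srsf1 window held 1 GC box and 1 E-box, and the Srsf4 window 3 GC boxes, 1 ETS motif and 1 E-box. The GC box and the E-box were the letters that the 3 windows shared, but they do not set these members apart. The Srsf5 window (3 GC boxes, 2 E-boxes) and the Srsf11 window (1 GC box, 1 E-box) also held both. Srsf3 was the only member without a GC box. Of all 32851 RefSeq windows of this length 32.7% held a GC box and 66.2% an E-box. The CCAAT box was in 33.9%, the ETS motif in 6.91% and the NRF1 motif in 3.74% of all windows, and the CRE motif, in 1.55% of all windows, was in none of the 3. GC made up 69.6% of the Srsf2 window, 58.8% of the Srsf1 window and 77.2% of the Srsf4 window, beside a median of 52.4% over all windows. Windows were found for all 10 members.

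After limits on UMIs (unique molecular identifiers), genes and mitochondrial share, 12523 cells with 151555303 UMIs were kept in the library labelled f/f and 10345 cells with 122938843 UMIs in the library labelled f/w. The median per cell was 10751 and 9480 UMIs. 74 barcode sequences occur in both libraries. Cells were given a class by fixed limits on marker UMIs and are called SKM-like (skeletal muscle), Mesen-like (mesenchymal), Chon-like (cartilage), Neu-like (neuronal), Sch-like (Schwann), Endo-like (endothelial), Immu-like (immune), Peri-like (pericyte), Epi-like (epidermal) and Ery-like (erythroid). These 10 classes had at least 50 cells in each library. The SKM-like class was led by Actc1, Myog and Tnnt2 and made up 15.7% of the cells of the library labelled f/f (15.0 to 16.3, exact binomial interval) and 0.938% of the library labelled f/w (0.761 to 1.14). Of the 6593 Chon-like cells, 3411 (51.7%) had 20 or more UMIs of the Chon markers. Of the 3270 cells that passed more than 1 class, 2863 passed Chon. Whether free cartilage RNA brought cells past the Chon limit was not tested. The Sch-like class was led by the melanocyte genes Dct and Pmel beside Fabp7 and Foxd3, and the Immu-like class by S100a9 and S100a8 beside Ccl4 and Lyz2. Cycling cells, by UMIs of 7 proliferation genes, were 32.0% of the library labelled f/f and 20.9% of the library labelled f/w.

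Over all kept cells, Srsf2 had 33179 UMIs in the library labelled f/f and 18781 in the library labelled f/w. That is a level of 219 CPM (CPM is the gene's UMIs scaled to 1000000 UMIs of the same cells, and its exact 95% Poisson interval was 217 to 221) against 153 CPM (151 to 155), or 1.43-fold lower. The log2 ratio was -0.52 (-0.54 to -0.49). Intervals here and below cover counting error only and say nothing of the spread between cells of a class or between embryos. Because the libraries differ in their makeup, levels were also averaged over the 10 classes with the same weights in both libraries, and the class-standardised log2 ratio of Srsf2 was -0.49 (-0.53 to -0.45), 1.40-fold lower. Of 14478 genes with at least 200 UMIs, 4.53% had a lower class-standardised ratio than Srsf2.

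Over all cells 9 of the 10 members lay below 0, with a median of -0.10 beside 0.02 over all genes. Class-standardised, 6 of the 10 did, with a median of -0.04 beside -0.06 over all genes. The share of all genes below 0 is not given on either scale. Over all cells 2 paralogs were at least 1.2-fold lower with Srsf2. Srsf1 had 112 CPM in the library labelled f/f and 83.2 CPM in the library labelled f/w, a log2 ratio of -0.43 (-0.46 to -0.39). Srsf4, the lowest counted member with 8151 and 4793 UMIs, had 53.8 and 39.0 CPM, a log2 ratio of -0.46 (-0.52 to -0.41). Together with Srsf2, 3 of the 10 members were at least 1.2-fold lower, a count to be read against 18.7% of all genes tested. With class makeup held the same, the ratios of both paralogs shrank, to -0.17 (-0.23 to -0.12) for Srsf1 and -0.26 (-0.34 to -0.18) for Srsf4, while that of Srsf2 stayed near its value. Srsf2 was then the 1 member at least 1.2-fold lower, beside 17.6% of all genes. Of all genes tested, 28.6% had a lower class-standardised ratio than Srsf1, and 18.3% had a lower one than Srsf4. Cells outside the 10 classes do not enter the class-standardised values. In those that passed more than 1 class the ratio was -0.60 for Srsf1 and -0.53 for Srsf4. How much of the shrinkage came from leaving such cells out was not tested. Srsf4 lay just inside the 1.2-fold line and was past it with a mitochondrial limit of 5% and with a Chon limit of 20 UMIs, the latter chosen after seeing the data.

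Srsf10 went the other way. Its level was 188 CPM in the library labelled f/f and 202 CPM in the library labelled f/w over all cells, a log2 ratio of 0.10 (0.07 to 0.12), and 183 and 218 CPM class-standardised, a log2 ratio of 0.25 (0.22 to 0.29), which is 1.19-fold higher and short of the 1.2-fold line. The ratio of Srsf10 between the libraries kept its sign in each alternative run, between 0.16 and 0.29 class-standardised, and 89.2% of all genes had a lower class-standardised ratio than Srsf10.

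The other 6 members differed by less than 1.2-fold on both scales. Srsf3, the shuttling member, had 586 and 513 CPM over all cells, a log2 ratio of -0.19 (-0.21 to -0.18) that came to -0.08 (-0.10 to -0.05) class-standardised. Srsf7, its partner in export, had 256 and 242 CPM, with -0.08 over all cells and 0.07 (0.04 to 0.10) class-standardised. Both values of Srsf7 lie close to 0 with opposite signs. Srsf5 had 436 and 414 CPM and -0.07 on both scales. Srsf6, its near relative, had 171 and 162 CPM, with -0.08 over all cells and 0.04 (0.0018 to 0.08) class-standardised. Srsf9 had 143 and 132 CPM, with -0.11 over all cells and -0.01 (-0.05 to 0.03) class-standardised. Srsf11 had 306 and 298 CPM, with -0.04 over all cells and 0.08 (0.05 to 0.11) class-standardised. The UMIs of all 10 members summed to 2470 CPM in the library labelled f/f and 2238 CPM in the library labelled f/w, a log2 ratio of -0.14 (-0.15 to -0.14). Srsf2 gave 8.86% of the family's 3′ UMIs in the library labelled f/f and 6.83% in the library labelled f/w. The median class-standardised ratio of the members was -0.04, beside -0.06 over all genes tested. The plot of library ratios sets both scales beside the values of single classes.

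**Figure D1:**
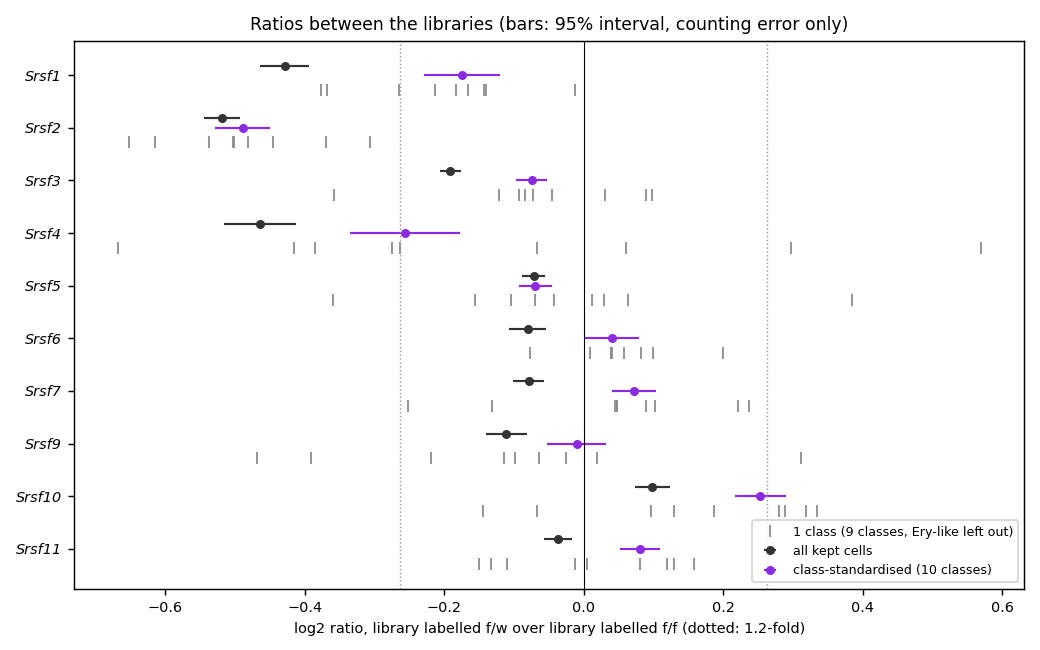
Log2 ratio of each of the 10 SR genes, library labelled f/w over library labelled f/f (x axis), over all kept cells (black) and class-standardised over 10 classes (purple), with 95% intervals that cover counting error only; grey ticks are the 9 classes other than Ery-like, and dotted lines mark 1.2-fold. Srsf2 sits near -0.5 on both scales, Srsf1 and Srsf4 move from -0.43 and -0.46 toward 0 when classes are weighted alike, and Srsf10 lies at 0.10 and 0.25.

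Srsf2 was lower in the library labelled f/w in 10 of the 10 classes, and its interval lay below 0 in each of them. In SKM-like cells, the lineage in which Myf5 acts, the level was 253 CPM in the library labelled f/f and 178 CPM in the library labelled f/w, a log2 ratio of -0.50 (-0.68 to -0.33). In the Mesen-like cells it was 200 and 141 CPM, a log2 ratio of -0.50 (-0.57 to -0.43). In the Chon-like cells it was 218 and 156 CPM, a log2 ratio of -0.48 (-0.53 to -0.43). These 3 classes gave nearly the same ratio, with intervals that overlap. The SKM-like class had 97 cells in the library labelled f/w, and with cells thinned to 2000 UMIs its ratio was -0.24 (-0.75 to 0.23), an interval that held 0. The Neu-like cells had 223 and 163 CPM (log2 ratio -0.45, -0.58 to -0.32), and the Endo-like cells 195 and 151 CPM (-0.37, -0.50 to -0.24). The Immu-like cells had 226 and 144 CPM (-0.65, -0.86 to -0.45), and the Sch-like cells 224 and 146 CPM (-0.62, -0.97 to -0.26). The Peri-like cells had 166 and 114 CPM (-0.54, -0.89 to -0.20), and the Epi-like cells 209 and 169 CPM (-0.31, -0.56 to -0.05). No 2 of these 9 classes were compared by a test, and the extremes, Immu-like and Epi-like, overlap in their intervals. The 3270 cells that passed more than 1 class gave -0.49 (-0.54 to -0.44) and the 2611 cells that passed none gave -0.43 (-0.56 to -0.30).

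The Ery-like cells stood apart. Srsf2 had 96.8 CPM there in the library labelled f/f and 16.9 CPM in the library labelled f/w, a log2 ratio of -2.52 (-3.54 to -1.62), and every other member with more than 3 UMIs in both libraries was also lower, from -1.11 (-1.96 to -0.31) for Srsf7 to -2.18 (-3.93 to -0.74) for Srsf1. This class held 56 and 59 cells, and haemoglobin genes took 72.1% of its UMIs in the library labelled f/f and 85.7% in the library labelled f/w, whose part in these ratios was not tested. Values over 9 classes leave it out.

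The order of Srsf2 levels over the classes was led by the SKM-like cells in both libraries and ended with the Peri-like and the Ery-like cells. In the library labelled f/f it ran SKM, Immu, Sch, Neu, Chon, Epi, Mesen, Endo, Peri and Ery, and the gaps beyond counting error lay between Endo-like and Peri-like and between Peri-like and Ery-like cells. In the library labelled f/w the gaps beyond counting error lay between Mesen-like and Peri-like and between Peri-like and Ery-like cells. All other neighbours in both orders differed by less than counting error, but classes farther apart were not compared in this way. In the library labelled f/f the Poisson interval of the SKM-like cells (247 to 259 CPM) lay above those of the Chon-like (213 to 222) and Mesen-like cells (195 to 206). In the library labelled f/w the SKM-like interval (158 to 201) overlapped that of the Chon-like cells (152 to 160). In the library labelled f/f the highest of the 9 classes had 1.52 times the Srsf2 level of the lowest. Among the members this spread was widest for Srsf4, 3.53 times between 21.2 CPM in Epi-like and 74.7 CPM in SKM-like cells, and Srsf1 and Srsf11 spread 2.02 and 2.01 times. 7 of the 10 members (Srsf1, Srsf2, Srsf3, Srsf4, Srsf6, Srsf7 and Srsf10) had their highest level of the library labelled f/f in the SKM-like cells, whereas Srsf5 was highest in Chon-like, Srsf9 in Peri-like and Srsf11 in Neu-like cells. Of all 14478 genes 9.68% had their highest level of these 9 classes in the SKM-like cells. That share includes sparsely counted genes, whose highest class can rest on few UMIs in a small class. No share is given for genes counted as well as the members, so it does not set the members apart from such genes. In the library labelled f/f, 57.1% of the SKM-like and 11.1% of the Neu-like cells were cycling. In its cells that were not, Srsf2 had 187 CPM in SKM-like and 207 CPM in Neu-like cells. There Srsf1 (125 CPM in SKM-like and 134 CPM in Neu-like cells), Srsf3 (622 and 632) and Srsf4 (54.7 and 58.2) were also higher in the Neu-like cells. So were Srsf7 (250 and 277 CPM) and Srsf10 (184 and 200 CPM), while Srsf6 was lower (181 and 164 CPM). Whether these gaps exceed counting error was not worked out. The part of cycling in the order of classes was not tested.

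**Figure D2:**
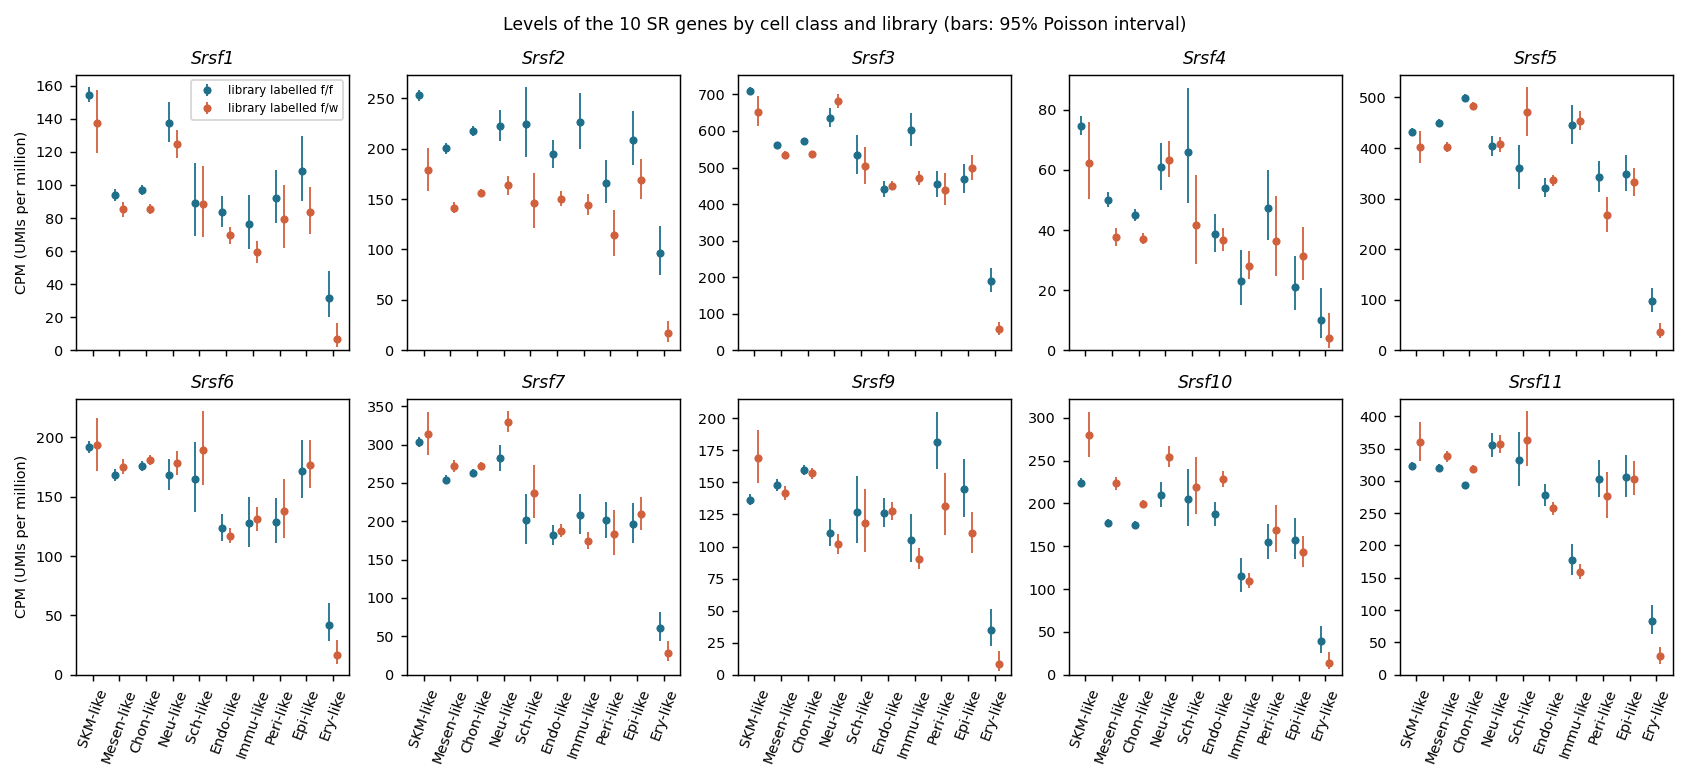
Level of each SR gene in CPM (y axis, from 0) in the 10 cell classes (x axis) of the library labelled f/f (blue) and the library labelled f/w (orange), with 95% Poisson intervals. Srsf2 is lower in the library labelled f/w in every class, from 253 against 178 CPM in SKM-like cells to 96.8 against 16.9 CPM in Ery-like cells, while most other members overlap or cross.

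Srsf1 was the paralog that followed Srsf2 in direction. It was lower in the library labelled f/w in 9 of the 9 classes, as Srsf2 was, whereas no other member was lower in all of them, and 4% of all genes were. Its interval lay below 0 in 5 of the 9. In the Mesen-like cells Srsf1 had 93.9 and 85.2 CPM (-0.14, -0.23 to -0.05) and in the Chon-like cells 96.9 and 85.3 CPM (-0.18, -0.25 to -0.11). In the Endo-like cells it had 83.5 and 69.5 CPM (-0.26, -0.46 to -0.07). The ratios ran from -0.38 in Epi-like to -0.01 in Sch-like cells, with a median of -0.18, beside -0.50 for Srsf2. Its SKM-like values were 154 and 138 CPM, with an interval (-0.37 to 0.03) that held 0.

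Srsf4 was lower in 6 of the 9 classes, with intervals below 0 in the Mesen-like cells (50.1 and 37.6 CPM, -0.42, -0.55 to -0.28), the Chon-like cells (45.0 and 37.2 CPM, -0.28, -0.38 to -0.17) and the Sch-like cells (66.1 and 41.6 CPM, -0.67, with an upper bound of -0.0026). Its SKM-like values were 74.7 and 62.3 CPM, with an interval (-0.57 to 0.03) that held 0. In the Immu-like and Epi-like cells, with 27 and 24 UMIs in the library labelled f/f, its ratios were 0.30 (-0.30 to 0.95) and 0.57 (-0.15 to 1.33).

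Srsf10 was higher in 7 of the 9 classes, with intervals above 0 in 5. In the SKM-like cells it had 224 CPM in the library labelled f/f and 280 CPM in the library labelled f/w (log2 ratio 0.32, 0.17 to 0.46), and in the Mesen-like cells 177 and 223 CPM (0.33, 0.27 to 0.39). The Neu-like and Endo-like cells gave 0.28 (0.16 to 0.40) and 0.29 (0.17 to 0.41), and the Chon-like cells 0.19 (0.14 to 0.23). The exceptions were the Immu-like and Epi-like cells, at -0.07 and -0.14 with intervals that held 0. No member was higher in each of the 9 classes, beside 1.53% of all genes. That share too includes genes that can lack UMIs in small classes.

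The remaining members differed in direction. Srsf6 was higher in the library labelled f/w in 8 of the 9 classes, but its interval held 0 in all 9, with ratios from -0.08 to 0.20. Srsf3 had intervals below 0 in 4 classes and above 0 in 1, the Neu-like cells (637 and 682 CPM, 0.10, 0.03 to 0.17). Srsf7 was higher in 7 of the 9 classes, as Srsf10 was, with intervals above 0 in 3 and below 0 in 1, the Immu-like cells. Srsf9 was higher in the library labelled f/w in the SKM-like cells, with 136 and 169 CPM (0.31, 0.13 to 0.49), and lower in 7 of the 9 classes, with intervals below 0 in the Peri-like (-0.47) and Epi-like cells (-0.39). Its SKM-like ratio was 0.42 (0.20 to 0.62) in cycling cells and -0.03 (-0.45 to 0.36) in the others, with 55 and 42 such cells in the library labelled f/w. Srsf5 and Srsf11 had intervals below 0 in 3 and 1 classes and above 0 in 1 and 3.

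Mettl23 and Mfsd11, the neighbours that overlap Srsf2 in GENCODE, did not move alike. Distances here are between GENCODE starts. The RefSeq start of Mfsd11 nearest to its GENCODE start lies 1322 bases from it, outside Srsf2. Mettl23, a methyltransferase-like gene whose start lies 9816 bases from that of Srsf2, had 30.8 CPM in the library labelled f/f and 18.6 CPM in the library labelled f/w, a log2 ratio of -0.73 (-0.80 to -0.65), and -0.62 (-0.73 to -0.51) class-standardised. It was lower in 9 of the 9 classes, with intervals below 0 in 5, among them the Chon-like (27.5 and 15.7 CPM) and Mesen-like cells (36.0 and 21.5 CPM). In the SKM-like cells it had 29.6 and 29.2 CPM and an interval (-0.49 to 0.41) that held 0, beside -0.50 for Srsf2. Mfsd11, whose start lies 654 bases from that of Srsf2, had 8.53 and 9.96 CPM, a log2 ratio of 0.22 (0.11 to 0.34).

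Members were also compared between cycling cells and the other cells of the same class and library, since the libraries differ in their share of cycling cells. Both sides of such a ratio come from the same library, so it describes that library. In the SKM-like cells of the library labelled f/f, 1120 cells cycled and 841 did not, with medians of 16085 and 11836 UMIs. Srsf2 had 289 CPM in the cycling and 187 CPM in the other cells, a log2 ratio of 0.63 (0.55 to 0.70). Srsf4 gave 0.65 (0.51 to 0.79) with 85.7 and 54.7 CPM, Srsf9 0.51 (0.41 to 0.61) with 153 and 107 CPM, and Srsf1 0.45 (0.36 to 0.55) with 171 and 125 CPM. Srsf10 gave 0.42, Srsf7 0.41 and Srsf3 0.29. These 7 of the 10 members were at least 1.2-fold higher in the cycling cells, beside 33.5% of the 8175 genes tested there. Srsf3 fell short of 1.2-fold, at 0.19, with haemoglobin, ribosomal protein and mitochondrial genes out of the denominator, at 0.20 with cells thinned and at 0.23 with cycling set by Mki67 alone. Srsf6 and Srsf11 were within 1.2-fold, at 0.14 each. Srsf5 was the member that was lower in cycling cells, with 409 and 474 CPM and a log2 ratio of -0.21 (-0.26 to -0.16).

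The same split in the SKM-like, Mesen-like, Chon-like, Endo-like and Neu-like cells of both libraries gives 10 ratios per member. Counts out of these 10 ratios were not made over all genes, so they do not set the members apart from other genes. Srsf2 was higher in the cycling cells in 10 of 10, with intervals above 0 in 9 and a median of 0.54. Srsf1 and Srsf3 were higher in 10 of 10, with intervals above 0 in 8 and 9 and medians of 0.44 and 0.33. Srsf7 and Srsf9 were also higher in 10 of 10, with intervals above 0 in 7 each and medians of 0.26 and 0.18, and Srsf4 and Srsf10 in 9 of 10, with medians of 0.41 and 0.31. Srsf5 was lower in 9 of 10, with intervals below 0 in 8 and a median of -0.22. The exception was the Neu-like cells of the library labelled f/f, at 0.22, where those of the library labelled f/w gave -0.35. The ratio of Srsf2 that differed most from the rest was that of the SKM-like cells of the library labelled f/w, with 187 CPM in 55 cycling cells and 163 CPM in 42 other cells, 0.20 (-0.18 to 0.58).

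**Figure D3:**
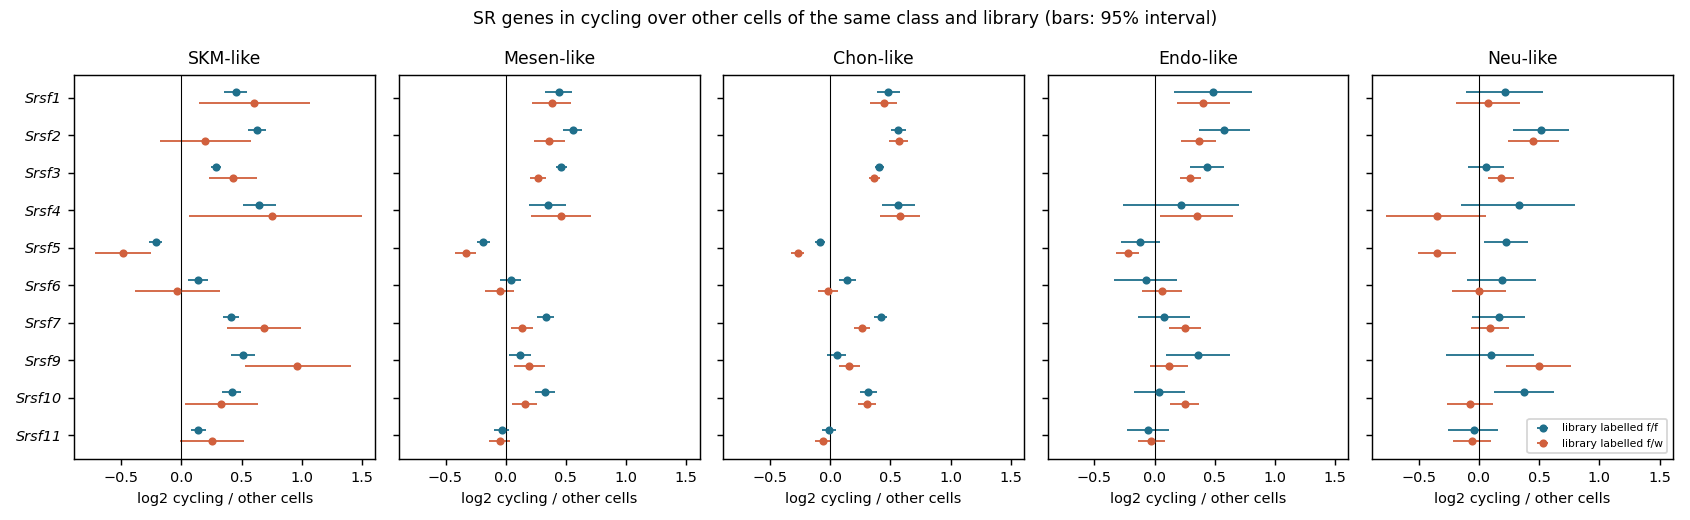
Log2 ratio of each SR gene in cycling over other cells (x axis) of the same class and library in 5 classes, for the library labelled f/f (blue) and the library labelled f/w (orange), with 95% intervals that cover counting error only. Most members sit to the right of 0, with Srsf2 between 0.20 and 0.63, while Srsf5 sits to the left in 9 of 10 cases.

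Within cycling cells and within other cells, Srsf2 was still lower in the library labelled f/w. It was lower in 10 of 10 parts of the same 5 classes, with intervals below 0 in 9 and a median of -0.43. In the cycling SKM-like cells it had 289 CPM in the library labelled f/f and 187 CPM in the library labelled f/w (-0.63, -0.85 to -0.42). In the other SKM-like cells the levels were 187 and 163 CPM, and the interval of the ratio (-0.53 to 0.11) held 0 with 87 UMIs in 42 cells of the library labelled f/w. The difference between these ratios was not tested, and their intervals overlap. Srsf1 was lower in 10 of 10 parts with a median of -0.15 and intervals below 0 in 3, and Srsf4 in 9 of 10 with a median of -0.24 and intervals below 0 in 4. Srsf10 was higher in 9 of 10, with intervals above 0 in 9 and a median of 0.26. Counts out of these 10 parts were not made over all genes either. Weighting classes and their cycling share alike gave class-standardised ratios of -0.44 for Srsf2, -0.14 for Srsf1, -0.23 for Srsf4 and 0.28 for Srsf10, an alternative chosen after seeing the data.

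Muscle cells leave the cell cycle as they turn from Pax7-positive progenitors into myocytes that express Myog (myogenin), and the members were followed across these states. In the library labelled f/f, 957 SKM-like cells had at least 1 Pax7 UMI and fewer than 5 Myog UMIs, and 732 were Myog-high, with 5 or more. Cycling cells were 70.1% of the former and 38.4% of the latter. Srsf9 differed most, with 175 CPM in the Pax7-positive and 77.4 CPM in the Myog-high cells, a log2 ratio of -1.18 (-1.29 to -1.06). Srsf2 had 281 and 212 CPM, a log2 ratio of -0.41 (-0.48 to -0.33). Srsf4 gave -0.33 (-0.46 to -0.19) with 81.5 and 65.1 CPM, and Srsf1 -0.29 (-0.38 to -0.19) with 166 and 137 CPM. These 4 of the 10 members were at least 1.2-fold lower in the Myog-high cells, beside 41.6% of the 7838 genes tested there. Srsf1 fell short of 1.2-fold with a mitochondrial limit of 5% (-0.25), with a Chon limit of 20 UMIs (-0.24) and without haemoglobin, ribosomal protein and mitochondrial genes in the denominator (-0.22), and Srsf4 with that denominator (-0.26). Srsf7 was just short of the line, at -0.26 (-0.33 to -0.19). Srsf5 was higher in the Myog-high cells, with 402 and 487 CPM and a log2 ratio of 0.28 (0.22 to 0.33), and Srsf6 gave 0.14 (0.06 to 0.23). Srsf3, Srsf10 and Srsf11 gave -0.02, -0.08 and -0.05.

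Leaving out the cycling cells left 286 Pax7-positive and 451 Myog-high cells and the same 5 members below 0 by the most. Srsf9 had 174 and 59.9 CPM, a log2 ratio of -1.54 (-1.73 to -1.35), Srsf2 gave -0.42 (-0.56 to -0.28), Srsf4 -0.50 (-0.75 to -0.24), Srsf7 -0.43 (-0.55 to -0.31) and Srsf1 -0.42 (-0.59 to -0.25). Srsf5 was still higher, at 0.19 (0.10 to 0.28), and Srsf3 came to 0.13 (0.05 to 0.20). Srsf10, near 0 with the cycling cells, came to -0.24 (-0.38 to -0.09). In the library labelled f/w the same comparison rests on 37 and 38 cells. There Srsf9 had 195 and 94.2 CPM (-1.05, -1.54 to -0.57) and Srsf7 -0.65 (-0.97 to -0.34), while the intervals of the other 8 members held 0, that of Srsf2 running from -0.55 to 0.26.

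**Figure D4:**
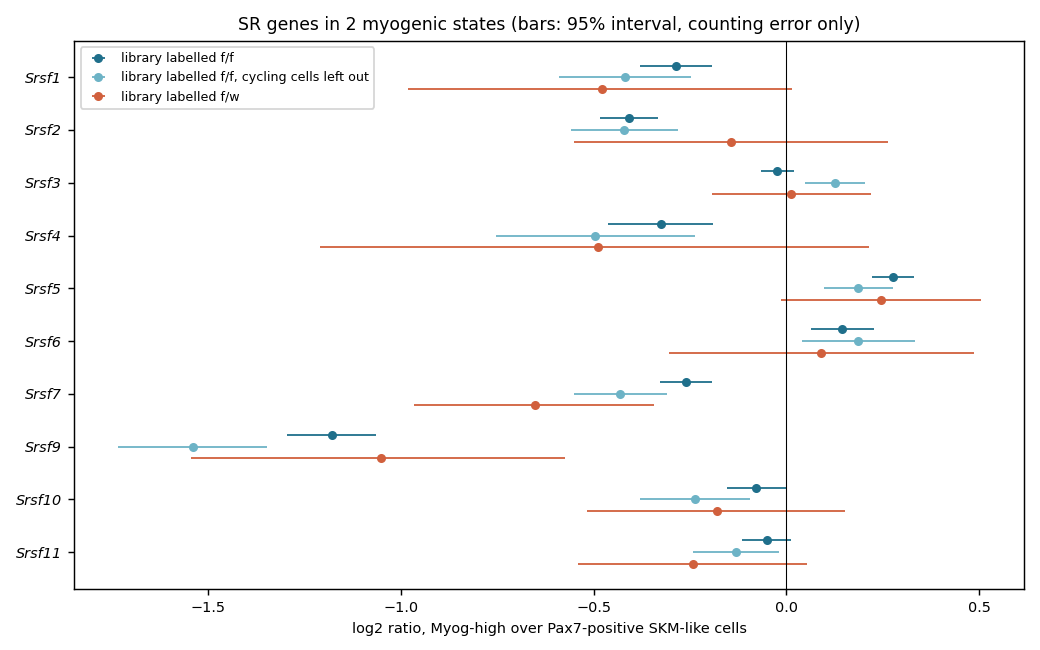
Log2 ratio of each SR gene in Myog-high over Pax7-positive SKM-like cells (x axis) for the library labelled f/f (dark blue), the same library without cycling cells (light blue) and the library labelled f/w (orange), with 95% intervals that cover counting error only. Srsf9 lies farthest left, at -1.18, -1.54 and -1.05, and Srsf5 lies right of 0, at 0.28, 0.19 and 0.24.

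The share of cells without an Srsf2 UMI was set beside the share that a Poisson law gives from the class level and the depth of each cell. Of the SKM-like cells, 170 of 1961 cells (8.67%, 7.46 to 10.0, exact binomial interval) of the library labelled f/f had no Srsf2 UMI, where the law gives 4.53%. In the library labelled f/w it was 19 of 97 (19.6%, 12.2 to 28.9), where the law gives 8.88%. The Chon-like cells had 18.9% against 14.1% in the library labelled f/f and 32.3% against 25.9% in the library labelled f/w. Over the 10 classes the observed share was 18.6% and 33.8%, which is 1.31 times the Poisson share in the library labelled f/f and 1.22 times in the library labelled f/w. The other 9 members ranged from 1.05 (Srsf4) to 1.76 (Srsf3) in the former and from 1.02 (Srsf4) to 1.52 (Srsf5) in the latter. This quantity depends on the level of the gene, being held near 1 where most cells are at 0, so it does not rank the members and does not show whether Srsf2 was lost from part of the cells. With each cell thinned to 2000 UMIs and shallower cells left out (609 and 750 cells), the Srsf2 values were 1.01 in both libraries, at a depth that leaves most cells at 0. No class that should lack Srsf2 is at hand to give the share that free RNA leaves.

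**Figure D5:**
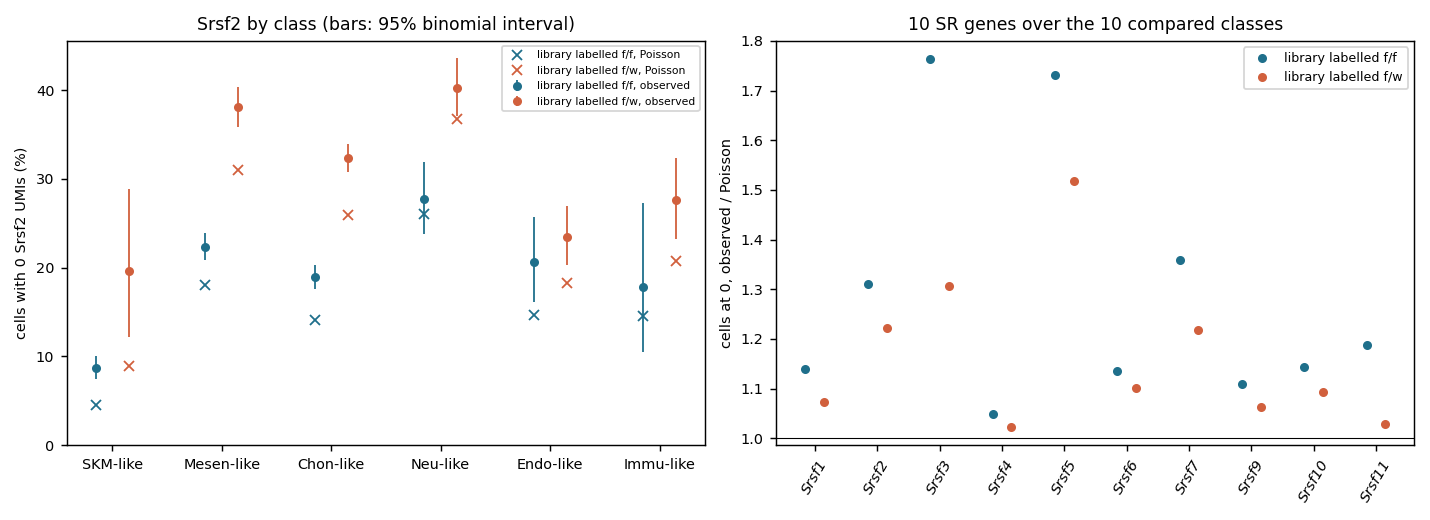
Left, share of cells with 0 Srsf2 UMIs (y axis, %) in 6 classes of each library, observed with exact 95% binomial intervals (circles) and given by a Poisson law (crosses); right, observed over Poisson share of cells at 0 for the 10 SR genes over the 10 compared classes. Srsf2 is at 1.31 (library labelled f/f, blue) and 1.22 (library labelled f/w, orange), and the members' values differ with their levels.

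The members whose level over the 18 points of 9 classes in 2 libraries was most like that of Srsf2, by Pearson's r on log2(CPM + 1), were Srsf3 (0.53) and Srsf1 (0.52), ahead of Srsf5 (0.31), while Srsf10 had -0.01. These points share libraries and depth, and r is a description. Among 9075 genes with at least 2000 UMIs, Srsf3 ranked 230 and Srsf1 253, beside a median r of 0.03. The 5 likest genes were Gm47283 (0.88), annotated on chromosome Y, the sphingomyelinase gene Smpd4, the 3′ end processing gene Cstf2, the transcriptional repressor gene Nacc1 and the spliceosome gene Sf3a2 (all 0.79). Each of them was lower in the library labelled f/w. The choice by r favours this, since Srsf2 was lower there in each class, so it is not a separate result. With the Ery-like points the 5 were Gm47283 (0.97), the poly(A) polymerase gene Papola, the E2F partner gene Tfdp1, the splicing gene Nsrp1 and Mettl23, with r of at least 0.96, and each of the other 9 members then had 0.81 or more, beside a median of 0.71 over all genes. Within the library labelled f/f alone, over 9 classes, Srsf3 had an r of 0.81 with Srsf2 and Srsf9 one of -0.59, and within the library labelled f/w 0.68 and 0.11. Srsf1 had 0.49 in the library labelled f/f, behind Srsf3, Srsf6 (0.61), Srsf7 (0.56) and Srsf5 (0.51). In the library labelled f/w it had 0.54, behind Srsf3 and Srsf7 (0.57).

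No other listed gene with an RS domain came as far below 0 class-standardised as Srsf2. Of these 20 genes, 3 were at least 1.2-fold lower and 1 at least 1.2-fold higher over all cells, where 18.7% of all genes were lower and 26% higher, and class-standardised 0 were past the line in either direction, with a median ratio of 0.01. The lowest was U2af2, the large subunit of the U2AF splice-site factor, at -0.20 (-0.25 to -0.15), and the highest Tra2a, a Transformer-2 homolog, at 0.22 (0.18 to 0.26). Luc7l2, a U1 snRNP-associated gene, lay at the median. Of 7 genes for the kinases that phosphorylate SR proteins and their import receptor, 1 was lower and 3 were higher over all cells beside the same shares of all genes, and class-standardised 0 were past the line, with a median of 0.14. These ran from -0.20 (-0.27 to -0.12) for Tnpo3, the import receptor, to 0.21 (0.18 to 0.24) for Clk1, a kinase of SR proteins, with Srpk2 at 0.14 (0.09 to 0.18). Class-standardised, 10.3% of all genes tested were at least 1.2-fold higher and 17.6% at least 1.2-fold lower.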

How the data were processed

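Single tdT-positive cells of 2 libraries, 1 per genotype, had been sequenced with 10x Genomics 3′ chemistry (v3.1). The deposited values are counts, UMIs per gene and barcode, which the authors made by mapping reads to mm10 without introns, counting with Cell Ranger and aggregating both libraries after down-sampling reads. The matrix header names Cell Ranger 5.0.0, and the submitters' processing notes name Cell Ranger 3.1.0, STAR and Seurat 3.1.1. Barcodes were matched to libraries by the number of cells in each library's own summary, and the libraries are called by the sample titles, which the study's supplement contradicts.

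Kept cells lay no farther than 2 SD from their library's mean in log10 UMIs and in log10 genes and had at most 10% mitochondrial UMIs. A cell took a class with at least 3 UMIs over at least 2 of its markers, Mesen only if it passed no other class (SKM from Pax7, Myf5, Myod1, Myog, Msc, Chrna1 and Cdh15, Mesen for instance from Pdgfra and Lum, Chon from Acan and Matn1, Neu from Tubb3 and Stmn2, Sch from Sox10 and Foxd3, Endo from Pecam1 and Cdh5, Immu from Ptprc and Tyrobp, Peri from Rgs5 and Abcc9, Epi from Krt5 and Epcam, Ery from Alas2 and Klf1). Cells that passed several other classes, among which doublets fall, and cells that passed none took no class. Cycling cells had at least 3 UMIs over 2 of Mki67, Top2a, Cenpf, Ccnb1, Hmmr, Nusap1 and Tpx2. UMIs were summed per library and class. Intervals of ratios are exact, given the sum of both counts, and class-standardised ratios have delta-method Poisson intervals with pooled class shares as weights. All are at 95% and were tested on simulated Poisson counts, which hold no spread between cells beyond counting error. A gene counted as lower or higher past a fold of 1.2. Genes named are all members, the overlapping neighbours, the 5 genes likest to Srsf2 and examples of both lists at the lowest, median and highest ratio. The members and lists were chosen with earlier results of these data known. Coordinates are from GENCODE vM21, promoter windows from RefSeq (GRCm38.p6). Protein sequences had been planned and were not used here. Alternatives changed the cell limits, marker limits, denominator, cell weights, depth, class weights, the fold and the cycling and Myog limits. Scripts used SciPy 1.17.1 and NumPy 2.4.6 for statistics, pandas 2.3.3 for tables and matplotlib 3.10.9 for plots, under Python 3.11.15.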

Additional observations from a re-analysis of the deposited data

Results flagged for a closer look

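Members whose interval lay below 0 in some classes and above 0 in others were looked at again, over the 9 classes without the Ery-like cells. None of these differences between classes was tested, and no correction was made for the number of members and classes.

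Srsf3 had log2 ratios, library labelled f/w over library labelled f/f, of -0.12 in SKM-like, -0.073 in Mesen-like, -0.093 in Chon-like and -0.36 in Immu-like cells, against 0.10 in Neu-like cells. Srsf5 had -0.16 in Mesen-like, -0.044 in Chon-like and -0.36 in Peri-like cells, against 0.38 in Sch-like cells. Srsf7 had -0.25 in Immu-like cells, against 0.10 in Mesen-like, 0.048 in Chon-like and 0.22 in Neu-like cells. Srsf9, the member that differed most between Pax7-positive and Myog-high cells, had -0.47 in Peri-like and -0.39 in Epi-like cells, against 0.31 in SKM-like cells. Split by cycling, its SKM-like ratio was 0.42 in cycling cells and -0.03 in the others, where the interval held 0. Srsf11 had -0.11 in Endo-like cells, against 0.16 in SKM-like, 0.080 in Mesen-like and 0.12 in Chon-like cells.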

How the results depend on the processing

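No paired analysis was possible because there is 1 library per genotype. Of 81 values of the 9 main results under alternatives, 66 stayed within the interval or within 1.5 times the count. Another 15 moved and 0 reversed. A reversal could be called only for the log2 ratios of Srsf2, not for counts or for the share of cells at 0. Srsf2 was lower in the library labelled f/w in every compared class under each alternative. This ran from 8 of 8 classes with a mitochondrial limit of 5% to 11 of 11. Over all cells the ratio of Srsf2 moved to -0.55 when haemoglobin, ribosomal protein and mitochondrial genes were left out of the denominator and to -0.48 with each cell weighing the same. Class-standardised it moved to -0.45 thinned to 2000 UMIs, -0.54 with the same weight for each class and -0.44 with classes split by cycling. In SKM-like cells thinning gave -0.24 (-0.75 to 0.23), and it took the observed over the Poisson share of cells at 0 in the library labelled f/w from 1.22 to 1.01. The number of members lower class-standardised was 2 with a mitochondrial limit of 5%, 2 with a Chon limit of 20 UMIs, 3 at a fold of 1.1 and 0 at a fold of 1.5, where the number over all cells was also 0, with Srsf2 at 1.43-fold. At a fold of 1.5 there were 2 members higher in cycling and 1 lower in Myog-high cells, and that denominator left 2 of the 4 lower in Myog-high cells, Srsf2 and Srsf9. The splitting by cycling, the Chon limit and leaving out Ery-like cells were chosen after seeing the data. Of 340 values of single members, 272 stayed within their interval, and 15 changed sign, each to a size of at most 0.097. Of these, 5 came from values whose interval held 0, and 10 from values whose interval did not. With each cell weighing the same, the all-cell ratios were 0.0065 for Srsf6, 0.029 for Srsf7 and 0.055 for Srsf11. Thinned, they were 0.043 for Srsf7 and 0.074 for Srsf11, and the class-standardised ratios 0.0011 for Srsf3 and -0.0039 for Srsf6. Srsf11 was at -0.0053 with the same weight for each class. Srsf10 in Myog-high over Pax7-positive cells was 0.0023 with a mitochondrial limit of 5% and 0.091 thinned. The causes were not tested. With 1 library per genotype, these data give no spread between embryos. The intervals cover counting error only and also leave out the spread between cells of a class.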

Other observations

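Cells outside the compared classes do not enter the class-standardised values. In the cells that passed more than 1 class, Srsf1 had 119 CPM in the library labelled f/f and 78.3 CPM in the library labelled f/w, a log2 ratio of -0.60 (-0.67 to -0.53), Srsf4 gave -0.53 (-0.63 to -0.43), Srsf2 -0.49 (-0.54 to -0.44), and Srsf10 lay at -0.0024 (-0.053 to 0.048). In the cells that passed no class, Srsf2 gave -0.43 (-0.56 to -0.30), Srsf1 -0.20 (-0.38 to -0.03), Srsf9 -0.19 (-0.33 to -0.05), Srsf4 -0.11 (-0.35 to 0.12), Srsf10 0.26 (0.15 to 0.37) and Srsf5 0.18 (0.10 to 0.25). These ratios were not standardised for makeup.

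Mfsd11 is a transporter-like gene whose GENCODE start lies inside Srsf2 on the other strand. It reached higher ratios in 2 classes than any member did in one of the 9. It had 8.59 CPM (249 UMIs) in the library labelled f/f and 16.9 CPM (26 UMIs) in the library labelled f/w in SKM-like cells, a log2 ratio of 0.97 (0.33 to 1.56), and 5.91 CPM (23 UMIs) and 12.5 CPM (126 UMIs) in Endo-like cells, a log2 ratio of 1.08 (0.43 to 1.78). In the other 7 classes without the Ery-like cells its interval held 0, between -0.43 in Immu-like and 0.53 in Epi-like cells. Srsf2 was lower in all of these classes, and the difference between classes was not tested.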
